A study of Mus musculus with 2 samples.

Results

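The proteasome genes were the genes whose platform symbol is Psma, Psmb, Psmc, Psmd, Psme, Psmf or Psmg followed by a number. These symbols stood on 82 of the 45281 probes of an Illumina mouse bead array, for 47 genes of 19057 named genes. Of the 47 genes, 39 had a probe detected on at least 1 array (detection p-value under 0.01) and were analysed, 38 of them on both arrays. The arrays compared RNA of lacZ-positive epicardial cells with RNA of all cells dissociated from the heart, both at E11.5, a day of gestation in mid heart development. All cells carried Tcf21lacZ, the lacZ reporter at the locus of the epicardial transcription factor gene Tcf21, in mice of mixed C57BL/6, 129 and CD-1 descent. Each group had 1 array, so each difference is given by its size, with the standard error (SE) over the beads of a probe and without a test. Symbols chose the genes, but the family was taken up, and Psmb1 set against the rest, because the ratio of Psmb1 on these arrays was already known. That ratio is therefore a description.

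The proteasome breaks down proteins that carry ubiquitin chains. Its core particle is a barrel of stacked rings: alpha subunits form the gated outer rings, and beta subunits form the inner rings that hold the peptidase sites. A regulatory particle caps the barrel, where ATPases unfold the substrate and other subunits bind and remove ubiquitin. Subunits are assembled in fixed proportions with the help of chaperones, and in mammalian cells the factor encoded by Nfe2l1 can raise the genes of many subunits together.

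Analysed proteasome genes lay close to level between the arrays, with Psmb1 apart from them. The log2 ratio, lacZ-positive cells over total heart, had a median of -0.13 over the 39 genes and of -0.14 without Psmb1, and all 9713 analysed genes had a median of 0.044. Of the 39 genes, 1 was at least 2-fold higher in lacZ-positive cells (Psmb1), where 3.82% of all genes were, and 0 were at least 2-fold lower, where 6.44% were. At 1.5-fold, 2 were higher (Psmb1 and Psmd8) against 12.3% of all genes, and 2 were lower by their measured ratios (Psmb8 and Psmb10) against 12.7%. Psmb8 was not well above background in lacZ-positive cells, and its bound of at least 1.33-fold does not reach 1.5-fold, which leaves 1. A log2 ratio above 0 was found for 12 of the 39 genes (30.8%) and for 54.2% of all genes. These shares depended on the scaling: without normalization between arrays 32 of the 39 genes (82.1%) and 79.7% of all genes were above 0. The place of the family relative to all genes changed little. Its median minus that of all genes was -0.18 as reported and -0.15 without normalization. Under both, 9 of the 39 genes lay above the median of all genes. The middle 50% of the proteasome genes spanned -0.28 to 0.022, a width of 0.30, where that of all genes was 0.61 wide. Proteasome probes were brighter than most, with a median log2 signal of 10.89 per gene against 8.33 over all genes, and the part of brightness in the narrower spread was not tested. In these bulk samples fewer cells of a type and less RNA per cell cannot be told apart.

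**Figure D1:**
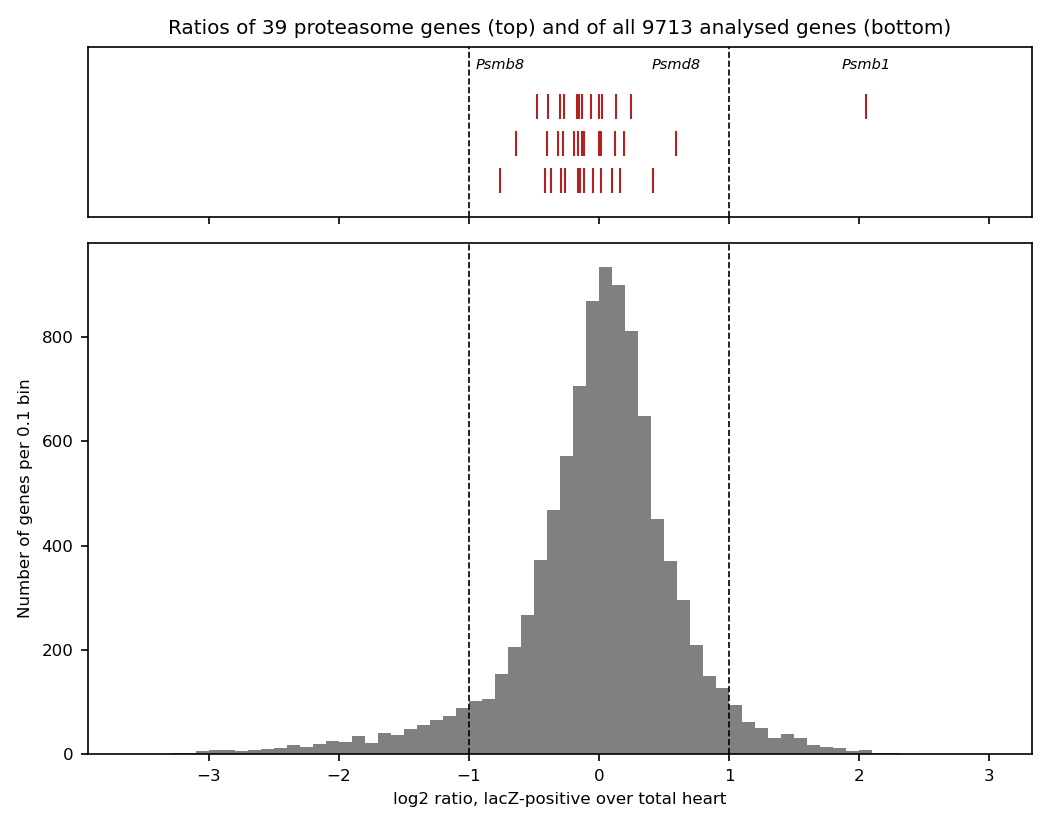
Log2 ratio of lacZ-positive cells over total heart (x axis) for the 39 analysed proteasome genes (upper panel, 1 red mark per gene, spread over 3 rows for legibility) and for all 9713 analysed genes (lower panel, number of genes per bin of 0.1). Dashed lines mark 2-fold; Psmb1 is the single proteasome gene beyond them, at 2.06.

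The arrays differed in overall brightness and in the cells they sampled. The median raw intensity was 63.5 on the lacZ-positive array and 57.6 on the total heart array, and the typical probe had 43 beads on either array. The values given here are background-corrected and quantile-normalized. Without normalization between arrays all genes had a median log2 ratio of 0.42, and 1020 genes were at least 2-fold higher and 381 lower, in place of 371 and 626. Of 9 detected epicardial markers, 8 were past 2-fold on the side of the lacZ-positive cells, with a median log2 ratio of 1.52 over the 9. Msln and Tbx18 were not detected, and Wt1 had no probe of that symbol. Tcf21, at 1.34, is among the 8, and its locus carries the reporter that marks the lacZ-positive cells. Its ratio is therefore not independent of how the cells were chosen. Lrrn4, also among the 8, was detected in lacZ-positive cells only. The summed raw intensity of the 9 detected markers was 22364 in lacZ-positive cells and 5434 in total heart. Cardiomyocyte markers were at least 2-fold lower for 11 of 15 detected genes (summed intensity 113916 in lacZ-positive cells and 230088 in total heart). Erythroid markers were at least 2-fold lower for 8 of 12 detected genes (summed intensity 180918 in lacZ-positive cells and 221677 in total heart), with Epb42 undetected. The other 4 detected genes were globin genes, with log2 ratios from -0.41 to 0.25. They held most of the summed intensity, so the sums describe them more than the 8 lower genes. Of 9 detected endothelial markers, 7 were within 2-fold and 2 at least 2-fold lower, with a median log2 ratio of -0.19, and Kdr was undetected. Muscle, red cell and endothelial transcripts were thus still read in the lacZ-positive RNA. The part of this mixture in the proteasome ratios was not tested.

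Psmb1, which encodes a beta ring subunit without a peptidase site of its own, was read by a single probe. Its raw intensity was 1992 ± 56.3 (SE over 29 beads) in lacZ-positive cells and 390.4 ± 20.1 (SE over 41 beads) in total heart, a raw ratio of 5.10. After normalization the log2 signal was 10.74 in lacZ-positive cells and 8.68 in total heart. The log2 ratio was 2.06 with a bead SE of 0.096, or 4.16-fold higher in lacZ-positive cells. Among the 9713 genes, 10 had a higher ratio, and 6 with the authors' processed values or 4 without background correction or with an offset of 50. The bead error is small beside this difference, but it covers neither other isolations nor another probe of the gene.

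The other beta ring genes did not share this difference. Psmb2, a subunit without peptidase activity, had raw intensities of 7828 ± 142 in lacZ-positive cells and 5507 ± 111 in total heart, and a log2 ratio of 0.16 (bead SE 0.044). Psmb4, whose product takes part in joining the barrel during assembly, stood at 12349 ± 370 in lacZ-positive cells and 10214 ± 224 in total heart, with a log2 ratio of 0 after normalization (bead SE 0.057). Psmb3, also without peptidase activity, measured 5805 ± 116 in lacZ-positive cells and 5543 ± 127 in total heart, a log2 ratio of -0.28 (bead SE 0.049). These 3 genes lay within 1.5-fold of level in either direction.

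The 3 beta subunits that carry the peptidase sites were level or slightly lower. Psmb6, of the caspase-like site, had 6021 ± 213 in lacZ-positive cells and 4954 ± 185 in total heart, with a log2 ratio of -0.065 (bead SE 0.069). Psmb7, of the trypsin-like site, had 5159 ± 249 in lacZ-positive cells and 5079 ± 197 in total heart by its brightest probe, a log2 ratio of -0.31. Its 4 probes did not give the same sign: 3 lay between -0.32 and -0.29 and the other at 0.17. Psmb5, of the chymotrypsin-like site, had 348.3 ± 25.1 in lacZ-positive cells and 349.6 ± 22.9 in total heart, with a log2 ratio of -0.39 and a wide bead SE of 0.16.

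Alpha ring genes were near level as well. Psma2 had 14789 ± 384 in lacZ-positive cells and 11194 ± 335 in total heart, a log2 ratio of 0.13 (bead SE 0.071). Psma5 and Psma4 had log2 ratios of 0.019 and 0.018, each smaller than its bead SE. Both probes of Psma7 were below level, at -0.19 and -0.22. Psma8, an alpha subunit known from the testis, was dim: its probes had raw intensities of 90.2 and 91.6 in lacZ-positive cells and 87.1 and 75.8 in total heart, and their log2 ratios, -0.30 and 0.11, had opposite signs.

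Set against the other 10 analysed core subunits (Psma2, Psma4, Psma5, Psma7 and Psmb2 to Psmb7), Psmb1 lay 2.09 above their median log2 ratio of -0.032, a 4.26-fold distance. Those 10 ratios spanned 0.55 from Psmb5 at -0.39 to Psmb2 at 0.16, with an SD of 0.19 over the 10 genes, and Psmb1 lay 1.90 above the highest of them. Every probe of these 10 genes detected on at least 1 array stood within 1.5-fold of level. The distance of 2.09 stayed between 1.98 and 2.18 under the other processings tried.

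**Figure D2:**
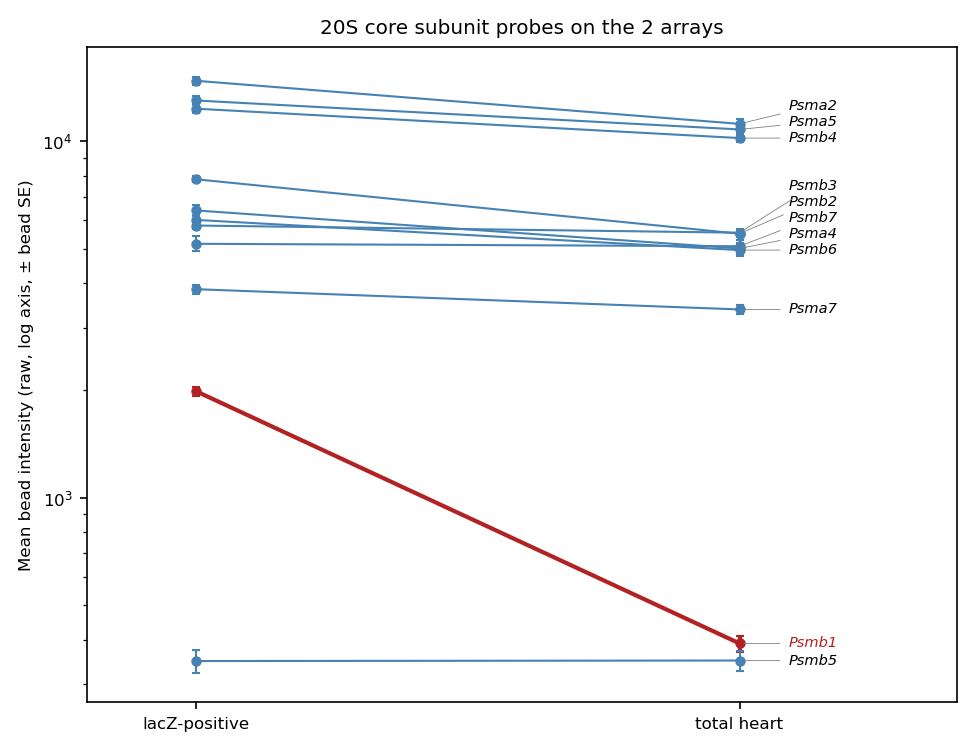
Raw mean bead intensity (y axis, log scale, bars ± bead SE) of the probe chosen for each of 11 core subunit genes on the lacZ-positive array (left) and the total heart array (right), joined per probe. Heights of different probes are not comparable, slopes are: the red line of Psmb1 joins 1992 in lacZ-positive cells with 390.4 in total heart, while the blue lines are nearly flat.

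Tbp and Pdcd2, taken as genes near Psmb1 and chosen after their values were seen, were near level. Values of other genes near Psmb1 are not given here. Tbp, which encodes the TATA-binding protein, had 4 detected probes with log2 ratios from -0.078 to 0.23. Its brightest probe had 408.6 ± 14.0 in lacZ-positive cells and 337.2 ± 13.6 in total heart. Pdcd2, a programmed cell death gene, had 1072 ± 44.1 in lacZ-positive cells and 883.5 ± 28.7 in total heart, a log2 ratio of -0.15 (bead SE 0.077). The ratios of Tbp and Pdcd2 are a description only, and the cause of the Psmb1 ratio was not tested.

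Of the 4 genes for inducible and tissue-restricted beta subunits, which replace the peptidase subunits in other forms of the proteasome, Psmb10 alone was detected on both arrays. It had the lowest ratio of the 38 proteasome genes so detected. Psmb10, the counterpart of Psmb7, had 631.2 ± 26.4 in lacZ-positive cells and 730.4 ± 23.7 in total heart, with a log2 ratio of -0.64 (bead SE 0.080, 1.56-fold lower). Its other probe had 422.0 ± 14.8 in lacZ-positive cells and 579.5 ± 19 in total heart and gave -0.91, so both were lower in lacZ-positive cells. Psmb8, the counterpart of Psmb5, was detected in total heart only, at 88.1 ± 4.72, and read 75.2 ± 4.0 in lacZ-positive cells, where it was not well above background. Its measured log2 ratio was -0.76 (bead SE 0.19), and its bound was 1.33-fold lower in lacZ-positive cells. That bound does not take in the bead error. The second Psmb8 probe, not detected on either array, read 56.0 in lacZ-positive cells and 55.8 in total heart. Psmb9, the counterpart of Psmb6, and Psmb11, the thymus form, were not detected on either array.

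Other genes of antigen processing lay on both sides of level. Of 9 such genes on the array 3 were detected: Irf1, an interferon-responsive transcription factor gene, had a log2 ratio of 0.76, B2m 0.46 and the class I gene H2-D1 -0.38. Leukocyte markers, whose cells carry much immunoproteasome, were detected for 3 of 7 genes: Csf1r at 0.21, C1qb at 0.12 and Lyz2 at -1.48. Ptprc, C1qa, Fcer1g and Tyrobp were undetected. The summed leukocyte intensity was 509.9 in lacZ-positive cells and 553.6 in total heart, and its part in the Psmb10 and Psmb8 values was not tested.

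The 5 analysed ATPases of the regulatory particle, which thread substrates into the barrel, lay between -0.16 (Psmc3) and 0.10 (Psmc2), with a median of -0.12. Psmc2 had 9440 ± 377 in lacZ-positive cells and 7354 ± 234 in total heart. Psmc1 stood at -0.0027, Psmc4 at -0.13 and Psmc5 at -0.12, with a second Psmc5 probe at -0.34. Their span was narrower than that of the alpha ring, the beta ring or the other regulatory subunits.

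Psmb1 aside, the widest range was that of the regulatory particle subunits other than the ATPases, with 10 analysed genes between -0.41 and 0.59 and a median of -0.059. Psmd8, a subunit of the lid, had 1955 ± 134 in lacZ-positive cells (21 beads) and 980.6 ± 47.6 in total heart (26 beads). Its log2 ratio was 0.59 with a bead SE of 0.13, or 1.51-fold higher. Without normalization between arrays it became 1.02, past 2-fold, and its second probe was not detected. Psmd2, a scaffold subunit of the base, was dim, at 157.0 ± 8.83 in lacZ-positive cells and 104.6 ± 5.93 in total heart (log2 ratio 0.41, bead SE 0.16), while its partner scaffold Psmd1 stood between 0.0063 and 0.12 by 3 probes.

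The remaining subunits of the regulatory particle were within 1.5-fold of level by their brightest probes. Psmd14, the deubiquitinating enzyme of the lid, had 594.1 ± 26.4 in lacZ-positive cells and 587.2 ± 28.3 in total heart, a log2 ratio of -0.41 (bead SE 0.10), and -0.13 by its second probe. Psmd4, a ubiquitin receptor, had 7738 ± 246 in lacZ-positive cells and 6796 ± 216 in total heart, a log2 ratio of -0.14. The lid genes Psmd6 (0.24), Psmd7 (0.024), Psmd12 (-0.15), Psmd13 (-0.27) and Psmd11 (-0.40) lay on both sides of 0. Probes of Psmd11 disagreed by 0.75, since a dim second probe, detected in lacZ-positive cells only, gave 0.35.

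Promoters of 3 genes are printed to show the sequence from which level and deviating members are transcribed: Psmb6 as a level core subunit, Psmd12 as a level lid subunit, and Psmd8 as the member with the highest ratio after Psmb1. Sequences are from RefSeq (GRCm38.p6), from 150 bases before to 30 bases after the annotated start, in 5′ to 3′ direction of the gene. Capitals mark TGACNNNGC, the antioxidant response element that NFE2L1 and NFE2L2 bind, or CCGGAAG, an ETS factor motif, on either strand.
Psmb6 (chr11:70525207-70525386, plus strand): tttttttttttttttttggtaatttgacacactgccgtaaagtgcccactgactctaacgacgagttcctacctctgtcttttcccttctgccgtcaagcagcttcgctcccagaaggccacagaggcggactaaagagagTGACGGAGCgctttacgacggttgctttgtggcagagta
Psmd12 (chr11:107479378-107479557, plus strand): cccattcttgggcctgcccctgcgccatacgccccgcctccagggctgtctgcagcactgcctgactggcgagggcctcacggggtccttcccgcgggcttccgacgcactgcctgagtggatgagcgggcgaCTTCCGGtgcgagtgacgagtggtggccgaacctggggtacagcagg
Psmd8 (chr7:29180644-29180823, minus strand): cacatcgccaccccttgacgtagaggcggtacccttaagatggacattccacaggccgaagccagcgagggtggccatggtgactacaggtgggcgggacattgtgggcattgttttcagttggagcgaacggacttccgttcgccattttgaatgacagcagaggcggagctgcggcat

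Psmb6 holds TGACNNNGC next to its start, and Psmd12 holds the ETS motif read on the opposite strand. The printed Psmd8 stretch holds neither of these exact strings. It does hold cttccgt, which differs from the CTTCCGG of Psmd12 in its last base only. In the full windows of 300 bases, TGACNNNGC stood in 14.3% of 42 promoters of 39 proteasome genes and in 12.4% of all 32851 promoters. CCGGAAG stood in 35.7% of the proteasome promoters and in 8.86% of all promoters. The 12 analysed genes with CCGGAAG had a median log2 ratio of -0.15, and the 5 with TGACNNNGC one of -0.15 as well. Neither group thus stood off from the family median of -0.13. Psmd12 and Psme4 were in both groups, so the groups are not separate. A match of letters does not show that a factor binds there.

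Assembly factors and activators were, by their brightest probes, below level with 1 exception. The chaperones of the core particle stood at -0.13 (Psmg3), -0.16 (Psmg2) and -0.26 (Psmg1), and 2 dimmer Psmg2 probes gave 0.069 and 0.11. Of the chaperones of the base, Psmd5 stood at -0.37, Psmd10 at -0.048 and Psmd9, the exception, at 0.19 with a bead SE of 0.23. The 4 activators lay below 0 by their brightest probes: Psme2 (-0.12) and Psme1 (-0.29) form the interferon-inducible cap, Psme4 (-0.17) a large single-chain cap, and Psme3 a cap of nuclear proteasomes. A dim second Psme4 probe, detected in lacZ-positive cells only, gave 0.22, and the mean of both Psme4 probes was 0.027. Psme3 had the lowest of these, at 1340 ± 40.1 in lacZ-positive cells and 1379 ± 54.9 in total heart, a log2 ratio of -0.48 (bead SE 0.074). Psmf1, an inhibitor gene matched by the rule, had no probe of that symbol in the annotation used.

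**Figure D3:**
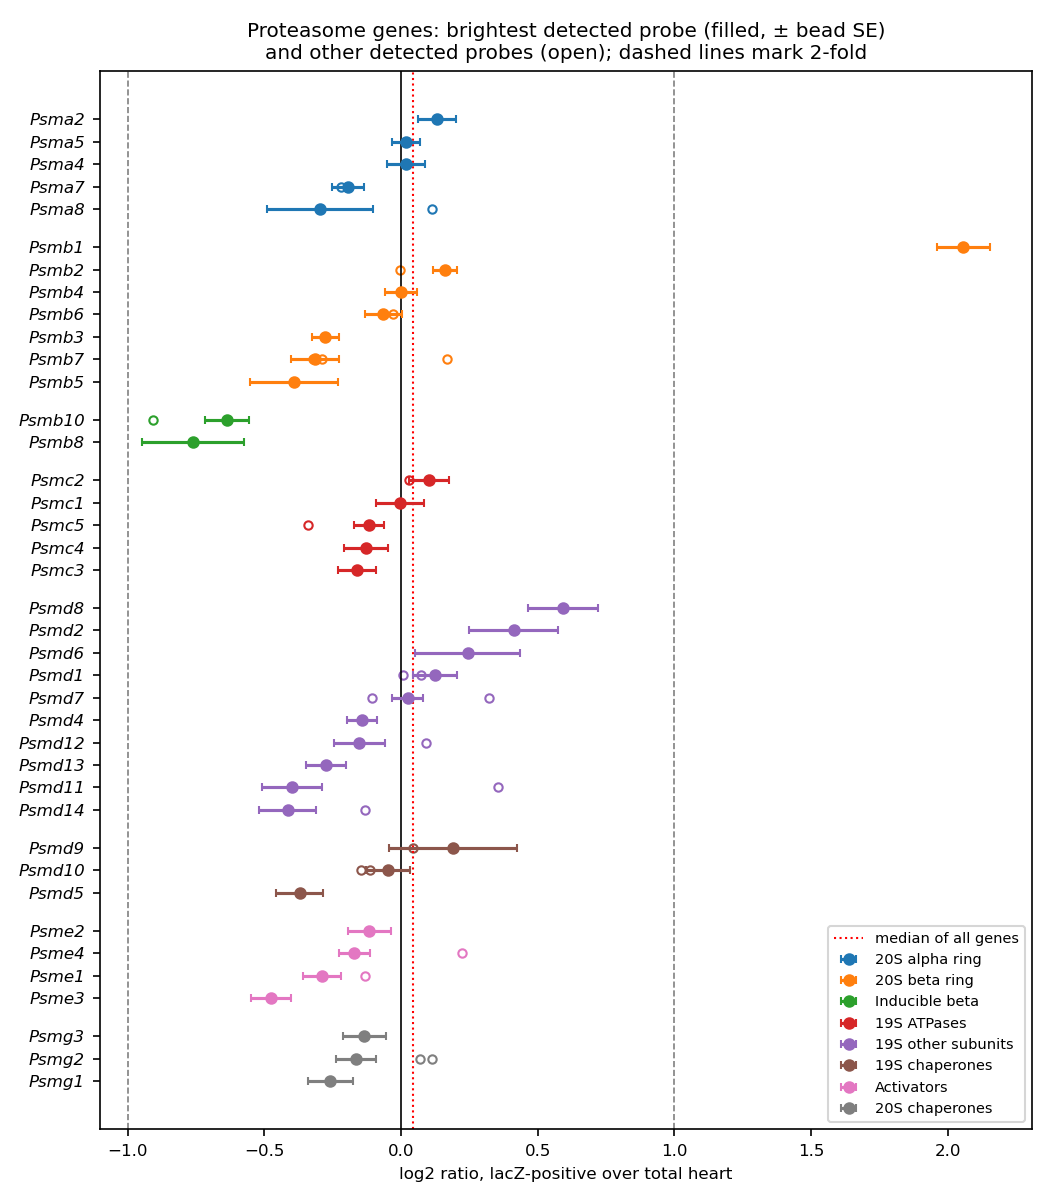
Log2 ratio of lacZ-positive cells over total heart (x axis) for each of the 39 analysed proteasome genes, grouped and coloured by role; filled points are the brightest detected probe with its bead SE, open points the other detected probes. The dotted red line is the median of all analysed genes (0.044). Apart from Psmb1 at 2.06, all points lie between the dashed 2-fold lines.

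Probes of the same gene show how far a single probe can be trusted. Of the 39 genes, 18 had over 1 detected probe, and their probes spanned a median of 0.23 and at most 0.75 in log2 ratio. Over all 3529 such genes the median span was 0.28 and the 90th percentile 0.77. The other 21 genes, Psmb1 among them, rested on a single detected probe. An undetected probe did not show that a gene was silent: of 19 undetected proteasome probes, 9 belonged to genes with another, detected probe. Another Psmb2 probe, for example, read 39.5 in lacZ-positive cells and 37.0 in total heart, at background on both arrays, beside the bright probe given above. Probes of Psma1, Psma3, Psma6, Psmc6 and Psmd3, subunits that proteasomes of all cells contain, and of the chaperone gene Psmg4 were at background on both arrays, so these genes have no ratio here.

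The other genes of the pathway were level too. Of 18 on the array 15 were detected, with a median log2 ratio of -0.062. Past 1.5-fold were 0 in either direction, where 12.3% of all genes were higher and 12.7% lower. Above 0 were 6 of the 15, and 54.2% of all genes. The highest were Rad23b, a shuttle for ubiquitinated proteins, at 0.26 and Usp14, a deubiquitinating enzyme of the proteasome, at 0.24. The lowest were Nfe2l2, a stress-response factor gene, at -0.46 and Uchl5, another deubiquitinating enzyme, at -0.37. Nfe2l1, the regulator of subunit genes named above and cited here outside the naming rule, had a log2 ratio of 0.20 (bead SE 0.060).

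Other complexes of many subunits are set beside the proteasome as a description only, since Psmb1 was taken up for its known ratio. In the CCT chaperonin, which folds actin and tubulin, 6 genes lay between -0.21 (Tcp1) and 0.12 (Cct6a), with a median of -0.0038. In the COP9 signalosome, a relative of the proteasome lid, 10 genes lay between -0.37 (Cops7a) and 0.21 (Cops4), with a median of -0.031. Of the translation initiation complex eIF3, 10 genes lay between -0.63 (Eif3j1) and 0.49 (Eif3h, detected in lacZ-positive cells only), with a median of 0.024. The gene farthest from its complex's median stood 0.21 away among 6 genes in CCT, 0.34 among 10 in COP9 and 0.66 among 10 in eIF3. In the proteasome it was Psmb1, 2.19 away among 39 genes. With Psmb1 left out it was Psmd8, 0.73 away. No test of these differences is possible with 1 array a group.

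**Figure D4:**
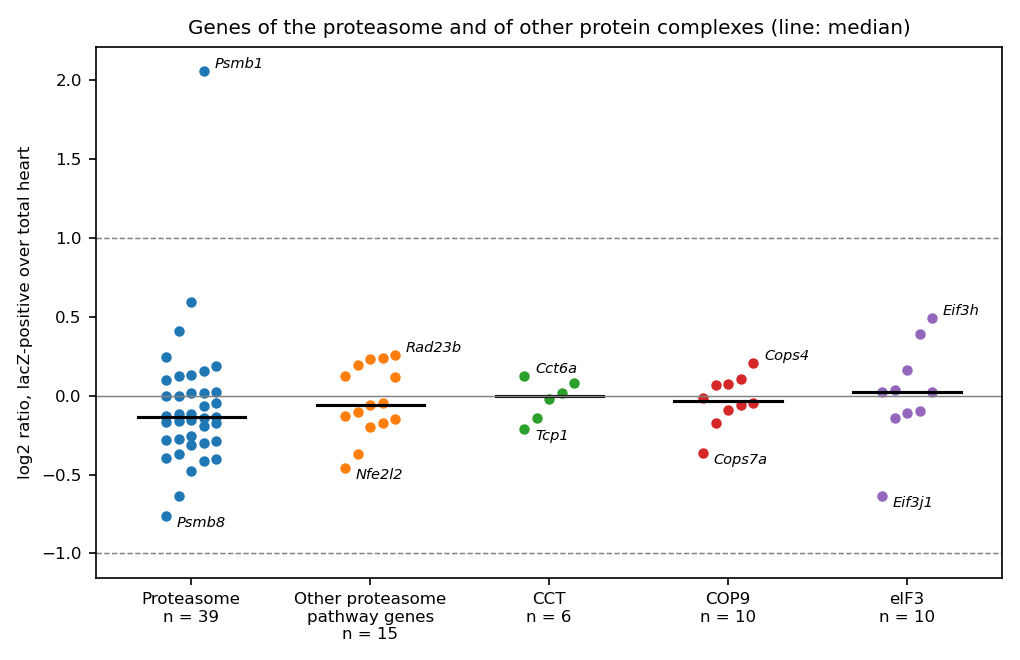
Log2 ratio of lacZ-positive cells over total heart (y axis) for genes of the proteasome, of its wider pathway and of CCT, COP9 and eIF3; 1 point per gene, black lines are medians, dashed lines mark 2-fold. Psmb1 is the single point beyond 2-fold.

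The order of these values held under the processing reported and the 8 others: Psmb1 had the highest ratio of the family, Psmd8 the next, and the family median lay below that of all analysed genes. The size of the ratios shifted most without normalization between arrays, by about the shift of all genes.

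**Figure D5:**
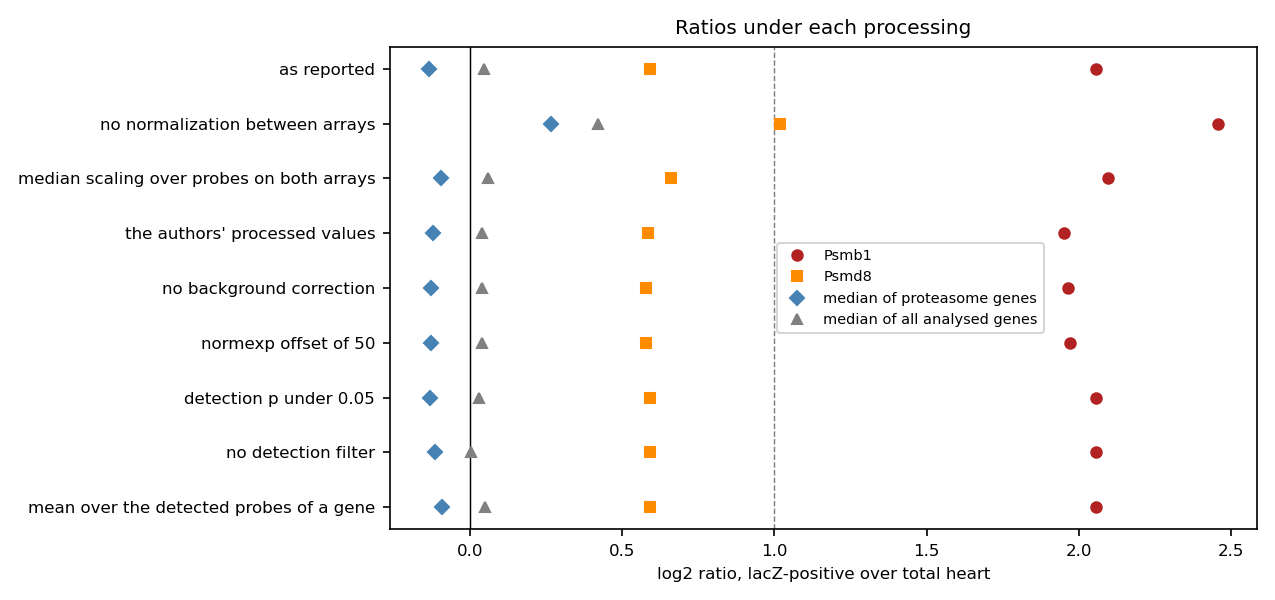
Log2 ratio of lacZ-positive cells over total heart (x axis) for Psmb1, Psmd8, the median of the proteasome genes and the median of all analysed genes, under the processing reported and 8 others (rows). Without normalization between arrays all 4 shift to the right, Psmb1 to 2.46 and Psmd8 to 1.02.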

How the data were processed

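For 45281 probes on either array, the authors deposited a mean intensity over beads, per the file headers, with its standard error over beads (an intensity signal), the bead count per probe and a detection p-value. The software was GenomeStudio, per the submitters' processing notes, and biotin-labelled cRNA was hybridised, per the labels' protocols. A second deposited table held intensity values that the authors had equalised between arrays by a method not given in the sources used here. Checked on the values, the first table was neither background-subtracted nor scaled.

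Intensities were background-corrected with the normexp model fitted through the detection p-values (limma 3.58.1, R 4.3.3), with an offset of 16, then quantile-normalized and log2-transformed. Gene symbols of probes came from GEO's platform annotation: 34885 had 1 symbol, 18 several and 10378 none, and 0 symbols differed from a RefSeq gene table. A gene was analysed if a probe had a detection p-value under 0.01 on at least 1 array, and was represented by its brightest detected probe. A gene detected on 1 array has a bound, taken against the higher of its own value and the lowest detected value of the dim array. Bead standard errors were carried through the normalization to the log2 scale.

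With 1 array per group there was no test and no replicate check, and the number of arrays limits the precision of every value. The steps were tried on simulated arrays, both drawn from the total heart signal, with 200 probes changed evenly in both directions. The arrays here differed more and less evenly, with 371 genes at least 2-fold higher and 626 lower. That trial therefore cannot show how normalization acts on such a difference. All proteasome genes could be named, and of other lists the 2 highest, the 2 lowest and any past 2-fold; exceptions are stated. Members, lists and motifs were chosen with earlier results of these data known.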

Additional observations from a re-analysis of the deposited data

How the results depend on the processing

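The 8 other processings were no normalization or median scaling between arrays, the authors' processed values, no background correction, an offset of 50, a detection limit of 0.05, no detection filter, and the mean over the detected probes of a gene. The log2 ratio of Psmb1 lay between 1.95 and 2.46 under these. Without normalization between arrays, which raised the median of all genes to 0.42, Psmb1 stood at 2.46 and the family median at 0.27. The family still lay 0.15 below all genes there, against 0.18 as reported, and 9 of the 39 genes lay above the median of all genes under both. In that setting 2 proteasome genes were at least 2-fold higher, 0 were at least 1.5-fold lower and 32 (82.1%) had a log2 ratio above 0, where 79.7% of all genes did. The role medians became 0.27 for the alpha ring, 0.27 for the beta ring and -0.37 for the inducible beta subunits. They became 0.28 for the ATPases and 0.34 for the other regulatory subunits. For the base chaperones the median was 0.38, for the activators 0.16 and for the core chaperones 0.27. Of the 39 single genes, 35 moved up there by more than their 95% bead error. At 1.5-fold, 1 gene was higher and 1 lower with the authors' processed values, with no background correction and with an offset of 50, in place of 2 and 2. Psmd8 sat on the limit, at 0.58 under all 3 against 0.59 as reported, and Psmb8, not well above background in lacZ-positive cells, stood between -0.44 and -0.42 against -0.76. The mean over probes moved 4 single genes beyond that error and median scaling 1, and under the other 5 processings 0 moved. Taking out Psmb1 left the family median at -0.14. Dim probes near background limit the ratios of Psmb8, Psma8, Psmd2, Psmd6 and Psmd9. No paired analysis was possible because each group has 1 array.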
